A study of Mus musculus with 4 samples.

Results

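Enzymes of amino acid breakdown in hepatocytes were compared between HFD-WT and HFD-KO livers for 9 genes, namely Tat, Tdo2, Hpd, Got1, Gpt, Gpt2, Cth, Sds and Agxt. The genes were found by their names among the 25655 genes of the deposited liver table, each was listed once, and all 9 passed the filter on low counts that left 12967 genes to be tested. Liver RNA came from 2 libraries per genotype. HFD-WT mice were ADAR2+/+/GluR-BR/R and HFD-KO mice were ADAR2−/−/GluR-BR/R, so the edited form of the glutamate receptor gene, which lets mice without ADAR2 survive, was carried by the controls as well. The ADAR2 allele was constitutive and not limited to the liver. All mice were male, had a mixed B6129S background and ate a high-fat diet for 12 weeks from the age of 5 weeks. The study's description of the sequencing gives more mice per group than there are libraries here and does not say whether a library held RNA of a single mouse or of a pool, so the p-values measure only the spread between these libraries.

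Hepatocytes break amino acids down by removing the amino group and feeding the carbon skeleton into the citric acid cycle, gluconeogenesis or ketone body synthesis. Aminotransferases pass the amino group to 2-oxoglutarate, and the nitrogen leaves the liver as urea. Tat, Got1, Gpt, Gpt2, Cth, Sds and Agxt need pyridoxal phosphate, the active form of vitamin B6, whereas Tdo2 is a haem enzyme and Hpd an iron enzyme. Several of these genes are known to respond in liver to glucocorticoids, glucagon and dietary protein, among them Tat, Tdo2 and Sds.

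The total count per library was between 24480798 and 28691330 reads. Each of the 9 genes had between 2617 and 51170 reads in a library, so that the counting error was at most 1.95% of a value and the spread between libraries set the precision. Adarb1, which encodes ADAR2, had 15.7 and 19.8 CPM (counts scaled to the library size) in HFD-WT livers, against 6.23 and 9.55 CPM in HFD-KO livers, with a log2 fold change of -1.17 (standard error SE 0.20, edgeR adjusted p = 0.159). The 6 hepatocyte markers were detected in all libraries, with a summed level from 82890 to 86180 CPM in 3 libraries and 106000 CPM in replicate 2 of HFD-KO. At an unadjusted p under 0.05 by edgeR, 4.25% of all genes tested were higher in HFD-KO livers and 4.73% lower. At such a p, 9 of 12 macrophage and Kupffer cell markers were lower. Their summed level was 491 and 615 CPM in HFD-WT livers, against 401 and 381 CPM in HFD-KO livers. In the same way, 5 of 8 stellate cell and fibroblast markers were lower, with 384 and 428 CPM against 333 and 241 CPM, and 3 of 5 red blood cell markers were higher, with 757 and 601 CPM against 811 and 1146 CPM. No gene of these lists had an adjusted p under 0.05 by edgeR, their part in the values of the 9 enzymes was not tested, and in whole liver fewer cells of a type and less RNA per cell cannot be told apart.

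None of the 9 enzyme genes differed between the genotypes at an adjusted p under 0.05 by edgeR, a threshold that 0.0771% of all genes tested passed. DESeq2's Wald test also gave 0 of 9. Sds alone had an unadjusted p under 0.05, by edgeR as well as by DESeq2, and was the lower in HFD-KO livers. Over all genes tested, 4.25% were higher and 4.73% were lower at such a p. The log2 fold changes were positive for 5 genes and negative for 4, and their median was 0.095, beside a median of 0.0068 over all genes tested. In CPM, both HFD-KO libraries lay above both HFD-WT libraries for Hpd and Agxt, while 20.5% of all genes tested had that order. The opposite order was seen for Tdo2, Gpt, Gpt2 and Sds and for 20.3% of all genes tested, and for Tat, Got1 and Cth the groups overlapped.

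**Figure D1:**
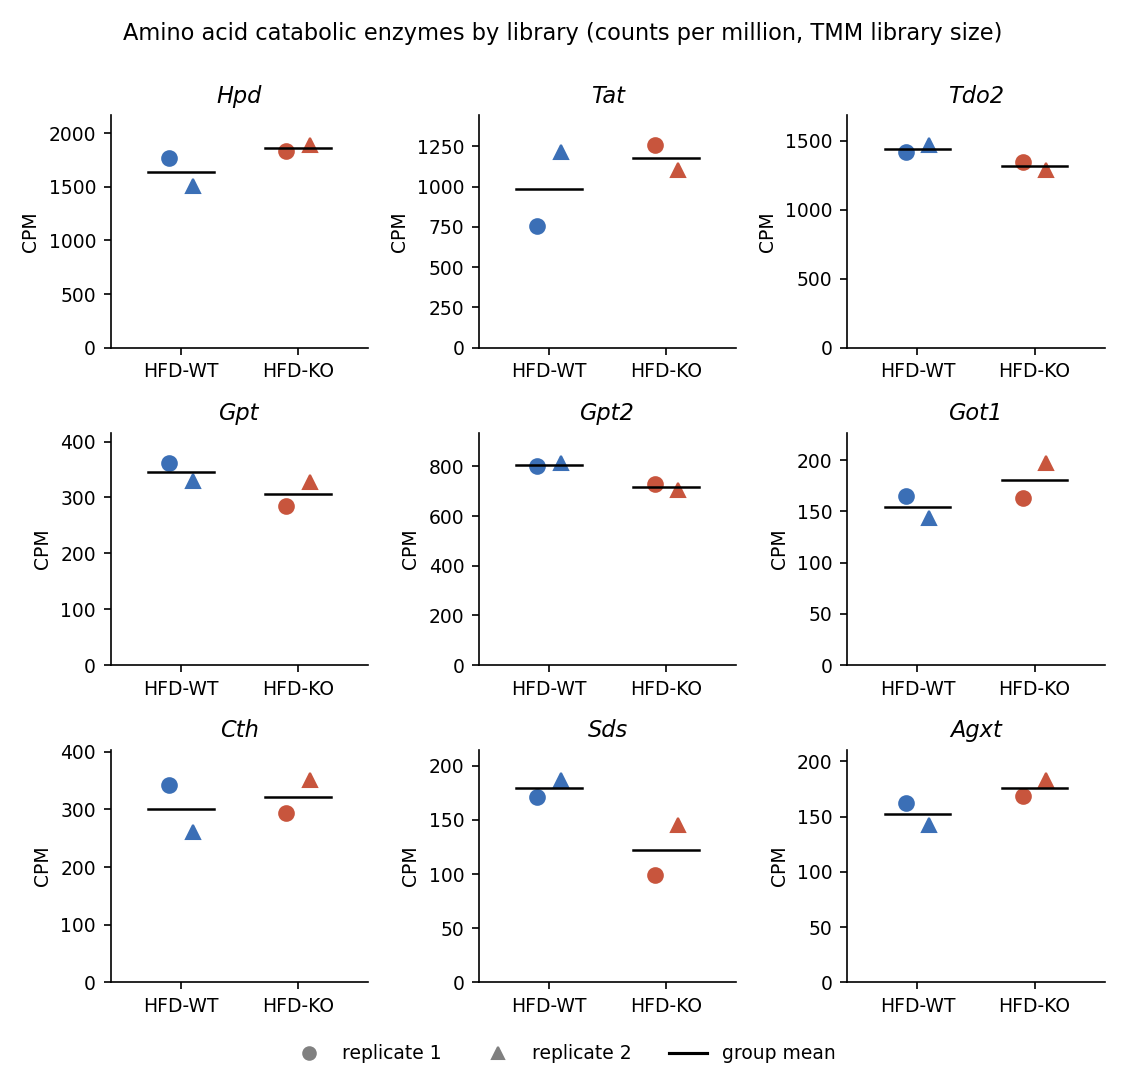
Level of each of the 9 enzymes in CPM (counts scaled to the TMM-adjusted library size, vertical axes from 0) in the 2 HFD-WT and 2 HFD-KO libraries; points are libraries and lines are group means. Tat spans 753 to 1212 CPM within HFD-WT, and Sds is at 99.4 and 145 CPM in HFD-KO against 172 and 187 CPM in HFD-WT.

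Per length and in every library, these genes were among the more abundant transcripts of the liver, from place 58 for Hpd to place 845 for Sds among all genes by the authors' TPM, a level per transcript length. Hpd was first of the 9 in each library, with between 1959 and 2346 TPM. Tat and Tdo2 followed, with 623 to 1028 and 734 to 872 TPM, so their order was not separated by the spread over libraries. Cth, Gpt and Gpt2 formed the next group, with overlapping ranges between 261 and 378 TPM. Agxt, Sds and Got1 were the lowest, with overlapping ranges between 128 and 257 TPM, although Sds held place 7 of the 9 in both HFD-WT libraries and places 9 and 8 in the HFD-KO libraries. The 9 genes together made up 0.531% and 0.539% of all TPM in HFD-WT and 0.529% and 0.554% in HFD-KO, so the groups overlapped in the summed level.

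Tyrosine is broken down by Tat and then by Hpd. Tat, tyrosine aminotransferase (ENSMUSG00000001670, GRCm39 chromosome 8, 110717069 to 110726435), had 753 and 1212 CPM in HFD-WT livers, against 1255 and 1104 CPM in HFD-KO livers. Replicate 1 of HFD-WT was thus the only low library, and the other HFD-WT value lay between the 2 HFD-KO values. The log2 fold change of 0.26 (SE 0.21, 95% interval -0.22 to 0.75, edgeR adjusted p = 0.746) was smaller than the difference of 0.69 on the log2 scale between the HFD-WT replicates. It was -0.05 without replicate 1 of HFD-WT and 0.65 without replicate 2 of HFD-WT.

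Hpd, 4-hydroxyphenylpyruvate dioxygenase, which acts on the product of Tat (ENSMUSG00000029445, GRCm39 chromosome 5, 123309870 to 123320790), had 1767 and 1512 CPM in HFD-WT livers, against 1832 and 1887 CPM in HFD-KO livers. Both HFD-KO values were the higher, but the nearest values of the groups, 1767 and 1832 CPM, were closer than the HFD-WT replicates to each other. The log2 fold change was 0.18 (SE 0.12, 95% interval -0.09 to 0.45, edgeR adjusted p = 0.694), and it was 0.08 without replicate 2 of HFD-WT and 0.29 without replicate 1 of HFD-WT. The whole Hpd gene lies within the span of Psmd9 on the opposite strand, which had from 1012 to 1159 reads per library. The study names a directional library kit, but whether reads were counted by strand was not stated. Hpd had 3.59 and 1.91 times the TPM of Tat in the HFD-WT libraries and 2.23 and 2.61 times in the HFD-KO libraries, so this ratio also overlapped.

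Tdo2, tryptophan 2,3-dioxygenase, opens the kynurenine pathway of tryptophan (ENSMUSG00000028011, GRCm39 chromosome 3, 81864397 to 81883509). It had 1418 and 1467 CPM in HFD-WT livers, against 1348 and 1288 CPM in HFD-KO livers. The replicates of each group were close, and the HFD-KO values were the lower. Its log2 fold change was -0.13 (SE 0.098, 95% interval -0.36 to 0.10, edgeR adjusted p = 0.735).

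Alanine is deaminated by Gpt in the cytosol and Gpt2 in mitochondria, the alanine aminotransferases. Gpt (ENSMUSG00000022546, GRCm39 chromosome 15, 76579916 to 76583886) had 362 and 330 CPM in HFD-WT livers, against 285 and 327 CPM in HFD-KO livers. The groups did not overlap, but replicate 2 of HFD-WT and replicate 2 of HFD-KO nearly met. The log2 fold change was -0.18 (SE 0.10, 95% interval -0.42 to 0.06, edgeR adjusted p = 0.667), and it was -0.08 without replicate 1 of HFD-KO and -0.28 without replicate 2 of HFD-KO. Gpt2 (ENSMUSG00000031700, GRCm39 chromosome 8, 86219205 to 86254189) had 800 and 814 CPM in HFD-WT livers, against 730 and 704 CPM in HFD-KO livers. It had the smallest difference between replicates of the 9 genes in HFD-WT, 0.03 on the log2 scale, and its log2 fold change was -0.17 (SE 0.090, 95% interval -0.38 to 0.04, edgeR adjusted p = 0.634). Per length, Gpt2 was at 0.842 and 0.940 times the TPM of Gpt in HFD-WT and at 0.978 and 0.820 times in HFD-KO, so the balance of the isoenzymes overlapped between genotypes.

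Got1, the cytosolic aspartate aminotransferase, which links aspartate to the malate-aspartate shuttle and the urea cycle (ENSMUSG00000025190, GRCm39 chromosome 19, 43488191 to 43513044), had 165 and 144 CPM in HFD-WT livers, against 163 and 198 CPM in HFD-KO livers. Replicate 2 of HFD-KO was high and the other HFD-KO value lay between the HFD-WT values. Its log2 fold change was 0.23 (SE 0.12, 95% interval -0.05 to 0.50, edgeR adjusted p = 0.630). Without replicate 1 of HFD-KO it was 0.36 with an adjusted p = 0.0252 by edgeR, a comparison in which a single HFD-KO library was assumed to vary like the others, and without replicate 2 of HFD-KO it was 0.08. Over the 10 alternatives the adjusted p of Got1 ranged from 0.0252 to 1.0. The TPM of the mitochondrial isoenzyme gene Got2 was 3.54 and 4.35 times that of Got1 in HFD-WT and 3.72 and 2.90 times in HFD-KO.

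Agxt, alanine-glyoxylate aminotransferase, which detoxifies glyoxylate in peroxisomes (ENSMUSG00000026272, GRCm39 chromosome 1, 93062962 to 93073143), had 162 and 142 CPM in HFD-WT livers, against 169 and 183 CPM in HFD-KO livers. The groups did not overlap, and the gap between them was smaller than the difference between the HFD-WT replicates. The log2 fold change was 0.21 (SE 0.096, 95% interval -0.02 to 0.43, edgeR adjusted p = 0.585), and it was 0.12 without replicate 2 of HFD-WT and 0.30 without replicate 1 of HFD-WT.

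Cth, cystathionine gamma-lyase, which makes cysteine at the end of transsulfuration (ENSMUSG00000028179, GRCm39 chromosome 3, 157599885 to 157630714), had 342 and 261 CPM in HFD-WT livers, against 294 and 351 CPM in HFD-KO livers. The groups overlapped almost completely, and the log2 fold change was 0.10 (SE 0.15, 95% interval -0.25 to 0.44, edgeR adjusted p = 0.882). It was -0.08 without replicate 2 of HFD-WT and -0.04 without replicate 2 of HFD-KO. A predicted gene on the same strand, Gm43314, shares 2231 bases with the span of Cth and had from 95 to 280 reads per library.

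Sds, serine dehydratase, which turns serine into pyruvate for gluconeogenesis (ENSMUSG00000029597, GRCm39 chromosome 5, 120614591 to 120621997), had 4970 and 5135 reads in HFD-WT and 2617 and 3471 reads in HFD-KO. These corresponded to 172 and 187 CPM in HFD-WT livers, against 99.4 and 145 CPM in HFD-KO livers. Both HFD-KO libraries were low, replicate 1 more than replicate 2. Its log2 fold change was -0.55 (SE 0.16, 95% interval -0.94 to -0.16), that is 0.683 times the HFD-WT level, with an unadjusted p = 0.0115 and an adjusted p = 0.400 by edgeR. Of the 12967 genes tested, 372 had a smaller p. Sds differed most of the 9 genes, and also had the largest spread within HFD-KO, 0.55 on the log2 scale. The log2 fold change was -0.30 (adjusted p = 0.0738 by edgeR) without replicate 1 of HFD-KO and -0.85 (adjusted p = 9.36e-07 by edgeR) without replicate 2 of HFD-KO, each a comparison with a single HFD-KO library. Without replicate 2 of HFD-WT it was -0.49, and the unadjusted p of 0.0616 by edgeR missed the threshold. DESeq2's Wald test gave an adjusted p = 0.0859, and over the 10 alternatives the adjusted p ranged from 9.36e-07 to 1.0. Over 651 bases Sds overlaps Plbd2 on the opposite strand, which had from 2222 to 2885 reads per library. Sds is known as a periportal gene of the liver lobule. Of 7 other periportal markers, 0 were higher and 1 was lower at an unadjusted p under 0.05 by edgeR, and their summed level was 5351 and 5453 CPM in HFD-WT livers, against 5332 and 5137 CPM in HFD-KO livers. Of 8 pericentral markers, 0 were higher in HFD-KO and 0 lower at such a p, with a summed level of 14750 and 12630 CPM in HFD-WT livers, against 15010 and 13420 CPM in HFD-KO livers. Among all genes tested, 4.25% were higher and 4.73% lower at an unadjusted p under 0.05 by edgeR. No marker of either zone had an adjusted p under 0.05.

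**Figure D2:**
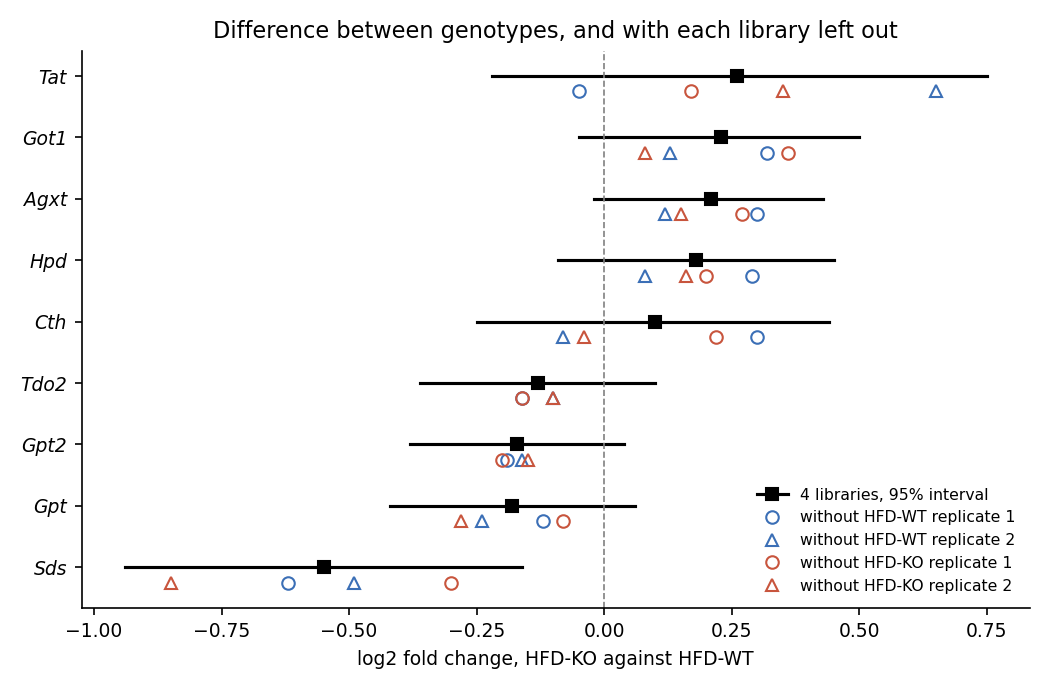
Log2 fold change between genotypes (HFD-KO over HFD-WT) for each enzyme (squares, with the 95% interval of the edgeR comparison of 4 libraries) and the value when each library is left out (open symbols). The interval leaves out 0 for Sds alone, at -0.94 to -0.16, and Tat moves from -0.05 to 0.65 with the choice of the HFD-WT library.

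The intervals give the sizes of difference that 2 libraries per group could still hold. The distance from the log2 fold change to the end of its interval ranged from 0.21 on the log2 scale for Gpt2 to 0.48 for Tat, beside a median of 0.29 over all genes tested. For Tdo2 the interval reached from 0.779 to 1.07 times the HFD-WT level, and for Gpt2 from 0.768 to 1.03 times. For Tat it reached from 0.858 to 1.68 times, so that a moderate increase and a small decrease were both within it.

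The 9 genes did not share a pattern across the libraries. With each gene set to its own mean on the log2(CPM + 1) scale, the average over the 9 genes was 0.015 and -0.012 in HFD-WT and -0.064 and 0.061 in HFD-KO, which was nearly flat. The distance between profiles, the root of the summed squared differences over the 4 libraries, was smallest for Tdo2 and Gpt2 at 0.044 and next for Hpd and Agxt at 0.062. It was largest for Tat and Sds at 1.088, since Tat was low in replicate 1 of HFD-WT and Sds in replicate 1 of HFD-KO. Among the other 7613 genes with a mean of at least 10 CPM, those nearest to the flat average of the 9 genes were Virma, Nop2, Slc16a12, Ccdc91 and Timm23, at distances from 0.006 to 0.014 over 4 libraries. With 4 points this likeness is a description only.

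**Figure D3:**
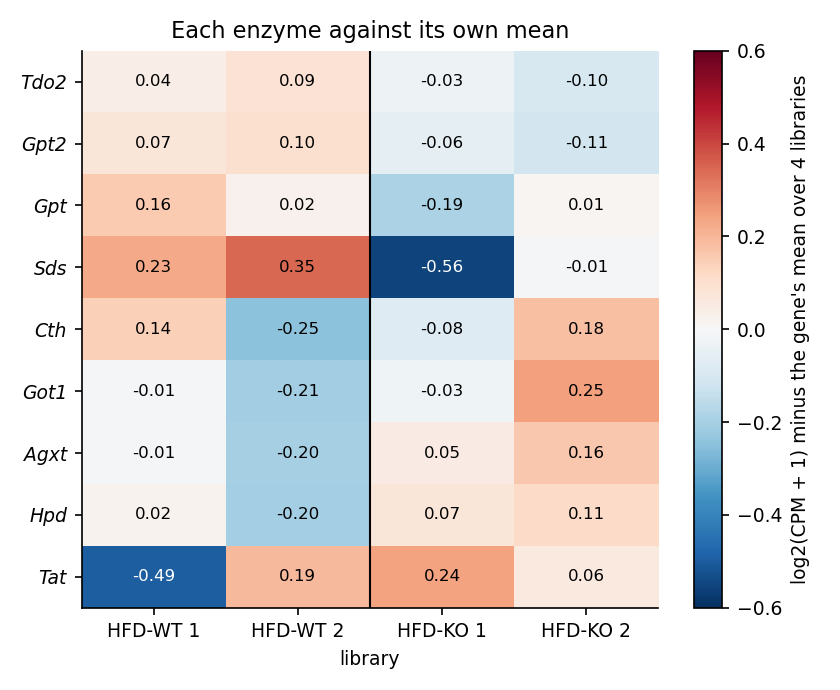
Log2(CPM + 1) of each enzyme in each library minus the gene's mean over the 4 libraries, with red above and blue below the mean. Tdo2 and Gpt2 are below their mean in both HFD-KO libraries, Hpd and Agxt are above it in both, and the lowest cells are Sds in HFD-KO 1 at -0.56 and Tat in HFD-WT 1 at -0.49.

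Promoter windows of 300 bases, from 250 before to 50 after the start of the gene, were given by RefSeq on GRCm38.p6 for 6 of the 9 genes, Tat, Tdo2, Hpd, Got1, Gpt2 and Agxt. They were searched on both strands for the letters of binding motifs that bear on hormone, amino acid and clock responses. The stretches below are shown because they hold the only matches, with the matched letters in capitals.

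Tdo2, chr3:81975899-81975978, minus strand, TATA box TATAAA 229 bases before the start: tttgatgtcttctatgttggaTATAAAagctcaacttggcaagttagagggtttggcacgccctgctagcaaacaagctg
Got1, chr19:43524665-43524744, minus strand, amino acid response element TGATGNAAN read on the other strand, 103 bases before the start: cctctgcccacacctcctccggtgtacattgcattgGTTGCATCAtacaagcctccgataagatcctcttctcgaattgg
Agxt, chr1:93135074-93135153, plus strand, glucocorticoid receptor motif AGAACA read on the other strand, 129 bases before the start: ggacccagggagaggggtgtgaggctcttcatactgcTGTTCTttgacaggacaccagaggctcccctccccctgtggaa

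The element TGATGNAAN, the composite site of ATF4, was present in 3.95% of 32851 promoter windows and TATAAA in 13.6%. AGAACA, which is only a half-site of the glucocorticoid receptor, was present in 19.0%. The core TGACG of cAMP response elements, present in 20.8% of windows, the E-box CACGTG in 7.15%, the D-box TTATGNAA in 3.38% and the C/EBP site TTGCNNAA in 10.8% had no match in the 6 windows, nor did the windows of Tat, Hpd and Gpt2 hold any of the 7 motifs. A match in letters does not show that a factor binds there. The TATAAA of Tdo2, 229 bases before the start, is given as letters only and was not shown to serve as a TATA box.

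The other genes of amino acid metabolism were taken from 12 lists, which held 103 genes that could be tested. Of these, 6 were higher in HFD-KO and 2 lower at an unadjusted p under 0.05 by edgeR, that is 5.83% and 1.94%. Among all genes tested the shares were 4.25% higher and 4.73% lower. The counts of the single lists below stand beside the same shares. Of the 103 genes, 0 passed an adjusted p of 0.05 by edgeR. Their median log2 fold change was 0.016. In the breakdown of phenylalanine and tyrosine around Tat and Hpd, 0 of 6 genes passed an unadjusted p of 0.05 in either direction, with a median of 0.03.

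In the breakdown of tryptophan, downstream of Tdo2, 2 of 10 genes were higher in HFD-KO and 0 lower at an unadjusted p under 0.05. Both were kynurenine aminotransferases, which turn kynurenine into kynurenic acid. Aadat, another kynurenine aminotransferase on the list, had a log2 fold change of 0.11 (unadjusted p = 0.26 by edgeR). Kyat3 had 51.9 and 54.6 CPM in HFD-WT livers, against 73.2 and 74.5 CPM in HFD-KO livers, with close replicates and no overlap. Its log2 fold change was 0.47 (SE 0.080), with an adjusted p = 0.143 in edgeR and 0.0113 in DESeq2's Wald test. With a library left out it lay between 0.43 and 0.51, and over the 10 alternatives, 4 of which leave a group with a single library whose spread is taken from the other group, the adjusted p ranged from 0.00158 to 1.0. Kyat1 had 54.6 and 64.1 CPM in HFD-WT livers, against 72.6 and 95.1 CPM in HFD-KO livers, for a log2 fold change of 0.50 (SE 0.14, edgeR adjusted p = 0.369). It was 0.29 without replicate 2 of HFD-KO and 0.68 without replicate 1 of HFD-KO.

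Of 12 genes of methionine and cysteine metabolism around Cth, 1 was higher in HFD-KO and 0 lower at an unadjusted p under 0.05. It was Cbs, the enzyme before Cth in transsulfuration, with 342 and 298 CPM in HFD-WT livers, against 355 and 449 CPM in HFD-KO livers and a log2 fold change of 0.33 (SE 0.13, edgeR adjusted p = 0.516). It was 0.15 without replicate 2 of HFD-KO and 0.49 without replicate 1 of HFD-KO. Of 12 genes of serine, glycine and threonine metabolism around Sds, 1 was higher in HFD-KO and 0 lower. It was Gcat, a threonine pathway enzyme listed as Gcat_1, with 28.2 and 26.5 CPM in HFD-WT livers, against 35.02 and 31.4 CPM in HFD-KO livers, and a log2 fold change of 0.28 (SE 0.091, edgeR adjusted p = 0.438).

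In the lists of glyoxylate and hydroxyproline metabolism around Agxt, of aspartate, glutamate and glutamine metabolism around Got1, of proline, ornithine and lysine breakdown and of the urea cycle, 0 of 5, 0 of 9, 0 of 7 and 0 of 6 genes passed an unadjusted p of 0.05 in either direction. Among 4 genes of histidine breakdown Uroc1, which acts on urocanate, was the lower, with 512 and 509 CPM in HFD-WT livers, against 412 and 454 CPM in HFD-KO livers and a log2 fold change of -0.24 (SE 0.091, edgeR adjusted p = 0.509). Among 18 genes of branched-chain amino acid breakdown 1 was higher, Ppm1k, the phosphatase that activates the branched-chain ketoacid dehydrogenase. It had 56.7 and 53.0 CPM in HFD-WT livers, against 69.6 and 75.0 CPM in HFD-KO livers, with a log2 fold change of 0.40 (SE 0.086, edgeR adjusted p = 0.233). Among 10 amino acid carriers 1 was higher, Slc38a2, an importer of small neutral amino acids, with 75.1 and 94.2 CPM in HFD-WT livers, against 101 and 107 CPM in HFD-KO livers (log2 fold change 0.30, SE 0.12, edgeR adjusted p = 0.510). Slc38a2 was at 0.14 without replicate 1 of HFD-WT and at 0.47 without replicate 2 of HFD-WT.

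Pyridoxal phosphate, the cofactor of 7 of the 9 enzymes, is made from vitamin B6 by pyridoxal kinase, encoded by Pdxk. Among 4 genes of this supply Pdxk was the only one past an unadjusted p of 0.05, with 76.4 and 90.1 CPM in HFD-WT livers, against 69.7 and 65.6 CPM in HFD-KO livers and a log2 fold change of -0.30 (SE 0.10, edgeR adjusted p = 0.451), which was -0.17 without replicate 2 of HFD-WT and -0.42 without replicate 1 of HFD-WT. Pdxk lies on GRCm39 chromosome 10 from 78272578 to 78300809, near Adarb1 (77126560 to 77254104). Of the 9 enzyme genes, 0 lie on that chromosome. Whether the position of Pdxk near the targeted gene bears on its lower level was not tested.

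Among 14 genes that respond to glucocorticoids or glucagon, or carry those signals, 1 was higher in HFD-KO and 1 lower at an unadjusted p under 0.05. Over all genes tested, 4.25% were higher and 4.73% lower at such a p. The median log2 fold change of the 14 genes was 0.03, with 8 positive and 6 negative. Fkbp5, a glucocorticoid-induced cochaperone of the receptor, had 88.6 and 164 CPM in HFD-WT livers, against 40.2 and 68.5 CPM in HFD-KO livers, for a log2 fold change of -1.22 (SE 0.32, edgeR adjusted p = 0.341). Igfbp1, a secreted binding protein of insulin-like growth factors that insulin represses, had 48.3 and 68.9 CPM in HFD-WT livers, against 93.6 and 293 CPM in HFD-KO livers, for a log2 fold change of 1.72 (SE 0.46, edgeR adjusted p = 0.358). Igfbp1 was at 0.68 without replicate 2 of HFD-KO and at 2.32 without replicate 1 of HFD-KO. Fkbp5 was at -0.70 without replicate 2 of HFD-WT and at -1.65 without replicate 2 of HFD-KO. On the list of 14 genes, Tsc22d3, Sgk1 and Per1, which respond to glucocorticoids as well, had log2 fold changes of -0.012, -0.002 and 0.186. The remaining positive genes were G6pc at 0.553, Nr3c1 at 0.234, Gcgr at 0.149, Creb3l3 at 0.067, Cebpa at 0.045 and Pck1 at 0.014. The remaining negative genes were Foxo1 at -0.262, Cebpb at -0.041 and Ppargc1a at -0.029. Whether hormone signals bear on the enzymes was not tested. Tat and Tdo2, which glucocorticoids are known to induce, had the values given above, with overlapping groups for Tat and a log2 fold change of -0.13 for Tdo2.

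Among 10 genes of the amino acid response that ATF4 governs, 2 were higher in HFD-KO and 0 lower at an unadjusted p under 0.05. Over all genes tested, 4.25% were higher and 4.73% lower at such a p. The median log2 fold change of the 10 genes was 0.25, with 7 positive and 3 negative. The negative ones were Psat1 at -0.227, Chac1 at -0.158 and Sesn2 at -0.075. Beside Atf4 and Trib3, the positive ones were Phgdh at 0.927, Asns at 0.379, Ddit3_1 at 0.305, Atf5 at 0.271 and Psph at 0.141. Atf4 itself had 76.1 and 72.7 CPM in HFD-WT livers, against 88.8 and 85.3 CPM in HFD-KO livers, for a log2 fold change of 0.23 (SE 0.080, edgeR adjusted p = 0.473). Trib3, a pseudokinase induced by ATF4, had 15.5 and 14.7 CPM in HFD-WT livers, against 17.5 and 25.9 CPM in HFD-KO livers, for a log2 fold change of 0.52 (SE 0.17, edgeR adjusted p = 0.445). It was 0.21 without replicate 2 of HFD-KO and 0.78 without replicate 1 of HFD-KO. For Atf4 and Trib3 the HFD-KO libraries lay above the HFD-WT libraries, an order that 20.5% of all genes tested had. From the amino acid and response lists together, 12 genes were named for an unadjusted p under 0.05 by edgeR. Of the 12 genes named from the lists, 8 no longer had an unadjusted p under 0.05 by edgeR with some library left out: Kyat1 and Slc38a2 without replicate 1 of HFD-WT, Pdxk without replicate 2 of HFD-WT, Cbs and Trib3 without replicate 2 of either group, Gcat without replicate 2 of HFD-WT or replicate 1 of HFD-KO, and Uroc1 and Atf4 without either HFD-WT library or replicate 1 of HFD-KO. Kyat3, Ppm1k, Fkbp5 and Igfbp1 had such a p in all 4 of these comparisons.

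**Figure D4:**
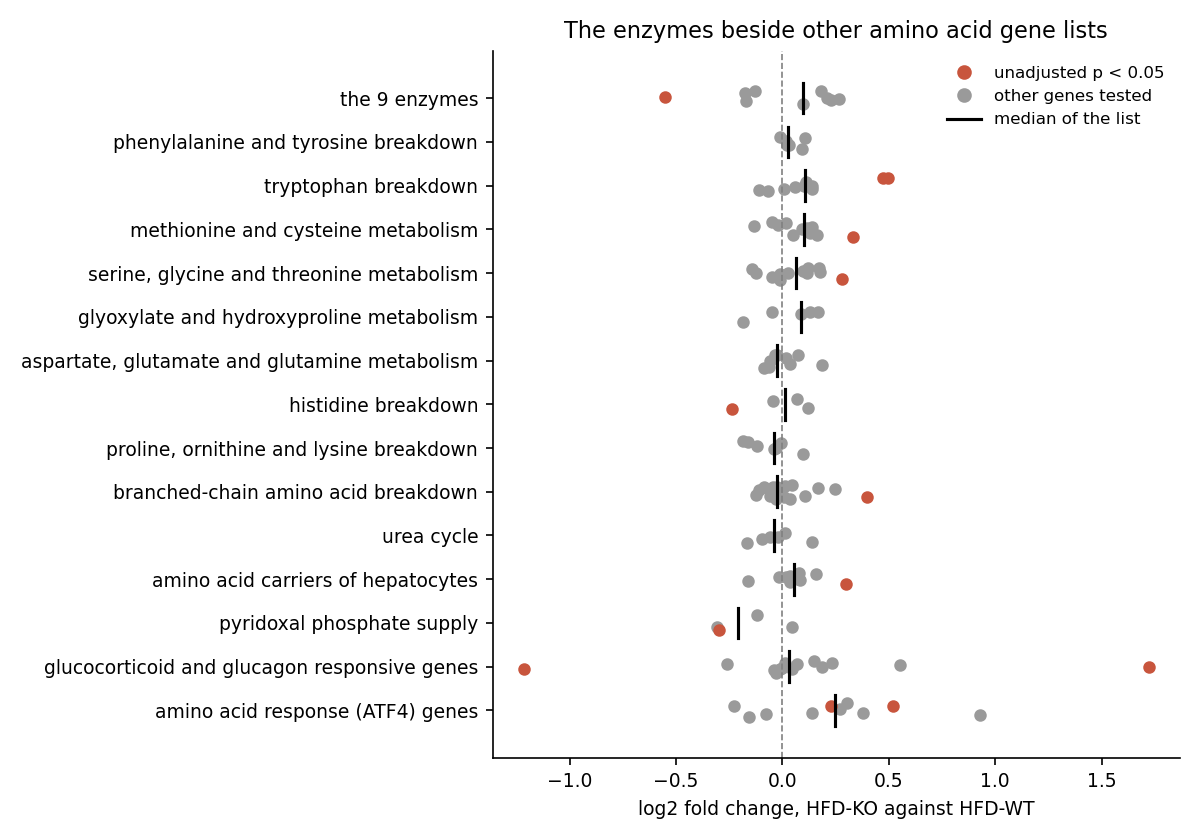
Log2 fold change between genotypes (HFD-KO over HFD-WT) for every tested gene of the 9 enzymes, the 12 amino acid lists and the lists of hormone and ATF4 responses, without the cell type markers (points, red at an unadjusted p under 0.05) with the median of the list (black line); the vertical scatter within a list has no meaning. The 9 enzymes have a median of 0.095 and 1 red point, Sds at -0.55, and the lowest and highest points plotted are Fkbp5 at -1.22 and Igfbp1 at 1.72.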

How the data were processed

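Polyadenylated liver RNA of 2 HFD-WT and 2 HFD-KO libraries was sequenced with paired ends. The authors trimmed and aligned reads with MGI software and quantified genes against GENCODE in Partek; versions are not given in the sources used here, and the methods name mm10 while the table has GRCm39 positions. The deposited values are whole read counts without normalization, which were tested here, TPM, used for levels between genes, RPKM, used only for gene lengths, and a CPM score on an adjusted library size, not used.

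Tests used edgeR 4.0.16 under R 4.3.3 (filterByExpr, TMM, quasi-likelihood test, two-sided, Benjamini-Hochberg over all genes tested; common biological coefficient of variation 0.102). CPM use the TMM library size. Standard errors are the log2 fold change over the root of F, and intervals are at 95%. DESeq2 1.42.0 was an alternative. With 2 against 2 libraries an exact permutation test cannot give a p under 0.333. The procedure was tested on simulated data. These held changes of 2 or 4 times with the same spread for every gene. The changes of the 9 enzymes were smaller, so the simulation does not cover them. The lists were compiled by hand, and 4 listed genes were matched by gene ID. The enzymes and lists were chosen with earlier results of these data known. Beside the 9 enzymes, genes were named by a rule. It took up to 3 with an unadjusted p under 0.05 in a list, those with the smallest p, and the 5 with the nearest profile. Other genes were named by hand outside this rule, among them Aadat, Got2 and the further genes of the hormone and ATF4 lists. Protein sequences were not analysed here. Plots were drawn with matplotlib 3.10.9.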

Additional observations from a re-analysis of the deposited data

How the results depend on the processing

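Of 90 alternative values for the 9 enzymes, 84 kept their direction and their side of an adjusted p of 0.05. Most of these values refit the same 4 libraries, so they are not independent checks. The 3 values that reversed direction all came from leaving a library out. With each library left out in turn, the log2 fold change ranged from -0.05 to 0.65 for Tat (-0.05 without replicate 1 of HFD-WT), from -0.08 to 0.30 for Cth (-0.08 without replicate 2 of HFD-WT and -0.04 without replicate 2 of HFD-KO), from 0.08 to 0.36 for Got1 and from -0.85 to -0.30 for Sds, and those of the other 5 kept their direction. The number of enzymes with an unadjusted p under 0.05 ranged from 1 (Sds without replicate 1 of HFD-WT, but Tat without replicate 2 of HFD-WT) to 5 (Agxt, Sds, Hpd, Gpt2 and Got1 without replicate 1 of HFD-KO), with Sds, Tat and Gpt without replicate 2 of HFD-KO, their median log2 fold change from -0.085 to 0.17, and the number of genes on the 12 other lists from 4 to 21. Over all genes tested, 10 had an adjusted p under 0.05, 6 with the library size alone, 117 with DESeq2's Wald test, 162 with no filter on low counts and from 0 to 705 with a library left out (the lowest without replicate 2 of HFD-WT, where 462 had an unadjusted p under 0.05, and the highest without replicate 1 of HFD-KO). An unadjusted p under 0.05 was found for 1164 genes (551 higher, 613 lower), for 676 with DESeq2's Wald test, for 346 higher and 894 lower with the library size alone, and for 462 to 2173 with a library left out. The cause of these differences was not tested. Replicate numbers occur in both groups, but no pairing is described. The deviations of same-numbered libraries had a correlation of -0.103 over 7622 genes (genes are not independent replicates), and with the replicate number as a block 20 genes had an adjusted p under 0.05, with no enzyme among them. With the pairing of the numbers crossed, an alternative chosen after seeing the data, the block gave 358 genes, 4 enzymes had an unadjusted p under 0.05 and Sds, at -0.57, was the 1 enzyme with an adjusted p under 0.05. Counting error was at most 1.95% of a value for the enzymes, so depth set little of the spread.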

Other observations

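Other cell type markers gave these values, as counts at an unadjusted p under 0.05 by edgeR and summed CPM. Among all genes tested, 4.25% were higher and 4.73% lower at such a p. Of 8 endothelial cell markers 0 were higher and 1 was lower, with 326 and 368 CPM in HFD-WT and 316 and 323 CPM in HFD-KO. Of 5 cholangiocyte markers 1 was lower, with 71.6 and 90.5 CPM against 59.5 and 50.04 CPM. Of 5 B and plasma cell markers 1 was higher, and replicate 1 of HFD-KO stood at 17.1 CPM beside 4.06 CPM in replicate 2 and 4.39 and 3.53 CPM in HFD-WT. None of 5 T and NK cell markers, with 1.72 to 5.96 CPM in the 4 libraries, and none of 3 tested neutrophil markers, with 3.57 to 8.22 CPM, passed that threshold. The 5 pancreas markers together had from 8.96 to 11.6 CPM, and Prss2 had no read. None of the markers had an adjusted p under 0.05.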
